A study of Drosophila melanogaster with 2 samples.

Results

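The 10 genes described here control entry into the cell cycle from G1 and exit from it, among 13623 genes measured in nuclear RNA of *Drosophila melanogaster* embryos. They were picked by symbol as known regulators of these steps, with earlier results of these data known. Of these, 9 were found under the same symbol, *CycE*, *CycD*, *Cdk4*, *dap*, *E2f*, *E2f2*, *Rbf*, *stg* and *trbl*. The remaining 1, *fzr*, was listed under its older symbol *rap*. The gene *E2f* is now named *E2f1*.

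GNP nuclei and glial nuclei were compared, 1 library each, so no difference between them has a replicate check. The GNP nuclei, whose sample label calls them early glial cells, came from embryos of 5 to 7 h after egg laying that carried *gcm*-Gal4 and a membrane GFP, by the label over a CyO balancer, while the study's methods describe the collected line without it. Glial nuclei, labelled late glial cells, came from embryos of 12 to 14 h that carried *repo*-Gal4 over a balancer, which the label names Tm3B and the methods Tm3. Both lines also carried UAS-3xFLAG-blrp-mCherry-RanGap, a tagged protein of the nuclear envelope by which nuclei were pulled from homogenates of cross-linked whole embryos. By the study's methods, the stock that supplied this transgene also expressed BirA, whose substrate is the blrp part of the tag. The driver, the line and the age of the embryos changed together with the cell type and cannot be told apart. *gcm* is also active in precursors of blood cells, so its driver is not restricted to the nervous system.

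A cell passes from G1 into S phase when Cyclin D with Cdk4 and Cyclin E with Cdk2 inactivate Rbf, the fly Rb protein, and so free E2F factors to switch on genes of DNA replication. Entry into mitosis needs the Cdc25 phosphatase String, which removes inhibitory phosphates from Cdk1. Cells leave the cycle with the help of Dacapo, an inhibitor of Cyclin E and Cdk2, and of Fzr, which directs the anaphase-promoting complex (APC/C) to mitotic cyclins. In the fly embryo most precursors of the nervous system divide at the younger age studied here, and most neurons and glia are past their divisions at the older one.

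Expression was given by the authors as FPKM, a read count scaled to transcript length and sequencing depth, so levels of different genes can be set side by side. The log2 change of a gene is the difference of its log2(FPKM + 1) values, glia minus GNP, and a gene is called lower or higher where this reaches a 2-fold difference, with no test. Folds printed for single genes are plain ratios of FPKM values and exceed the log2 change most where a value is low. The steps of low values corresponded to about 63.7 M mapped reads in GNP and 52.2 M in glia. Each of the 10 genes then rested on at least 1649 reads in either library, so that counting error was small beside the differences of the genes other than *fzr*, while variation between embryo collections remains unmeasured. Of the marker lists, 6 of 10 glial genes were higher in glia, including *repo* from 3.84 to 32.0 FPKM, while *gcm* went from 40.2 to 21.5 FPKM. Neuroblast genes, 5 of 8 lower, summed to 412 FPKM in GNP and 162 FPKM in glia, while *scrt* went the other way, from 43.4 to 62.0 FPKM. Muscle genes, 5 of 6 higher, summed to 773 and 5009 FPKM, of which *Act57B* alone made 473 and 3197 FPKM. *Mef2* went the other way, from 58.3 to 43.7 FPKM. Of 4 germ cell genes 2 were lower and 1 higher, and of 2 tracheal genes 1 was lower and 0 higher. Neuronal genes summed to 109 and 502 FPKM, or 94.1 and 175 FPKM without *fne*, and *elav* went the other way, from 76.9 to 44.2 FPKM. Hemocyte genes summed to 85.9 and 106 FPKM, or 75.7 and 50.5 FPKM without *Pxn*, since the other 4 had lower values in glia. On log2(FPKM + 1) none of these reached 2-fold, 0 of 5 being called lower and 1, *Pxn*, higher. *eater*, at 0.056 and 0 FPKM, and *Hml*, at 0.95 and 0.12 FPKM, were near the floor in both libraries. In such bulk samples fewer cells of a dividing type and less RNA per cell cannot be told apart, and the part of these cell types in the results below was not tested.

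All 10 genes had a lower deposited FPKM in glia than in GNP, but by very different amounts, and *fzr* turned slightly higher when the libraries were scaled to their upper quartiles. Of the 10, 6 were at least 2-fold lower, *CycE*, *CycD*, *trbl*, *stg*, *dap* and *E2f2*, and 0 were at least 2-fold higher. The other four were *Cdk4*, *Rbf*, *E2f* and *fzr*. Over the whole table, genes at least 2-fold lower made up 16.4% and genes at least 2-fold higher 21.2%. The median log2 change of the 10 was -1.10, against 0.04 over all genes. Genes in the same range of GNP values were lower in glia more often than genes of the whole table. Of the 2568 genes whose GNP value lies in the range of these 10, from 38.7 to 223 FPKM, 40.7% were at least 2-fold lower and 8.92% higher, with a median log2 change of -0.73. The share of 6 in 10 is nearer to this background than to that of the whole table. This background was picked on the GNP value, which also enters the change, and such a pick can by itself tilt changes downward.

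**Figure D1:**
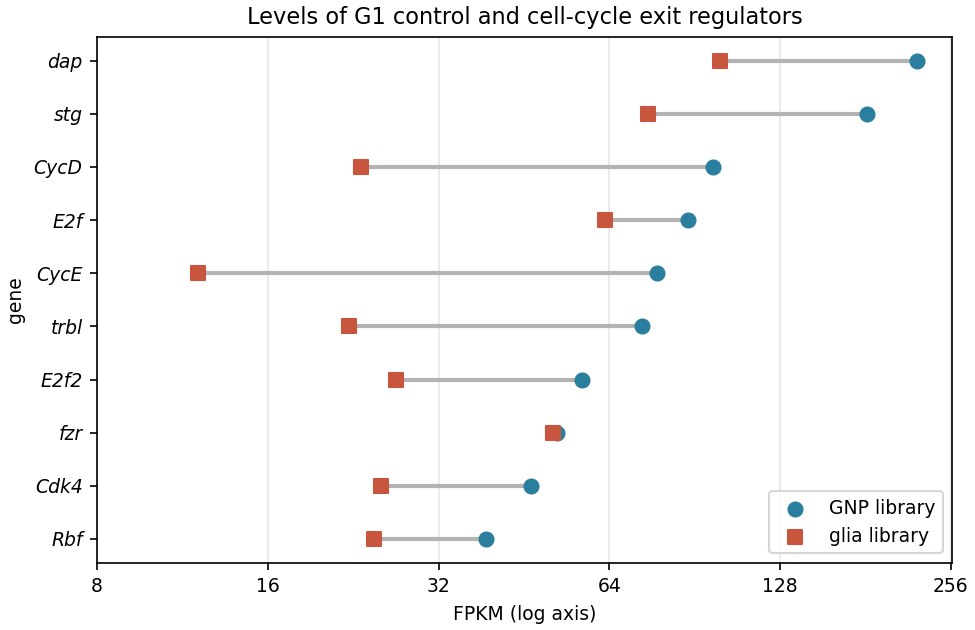
Level of each gene in the GNP library (circles) and the glia library (squares), in FPKM on a log axis, 1 library each and no error bars because there are no replicates. The squares lie left of the circles in each row, by the longest distance for CycE and almost on top of each other for fzr.

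Of the 10, the G1 cyclins changed most. *CycE* encodes Cyclin E, which with Cdk2 starts S phase, and its level was 77.6 FPKM in GNP against 12.0 FPKM in glia. This is 6.45-fold lower, with an interval of 6.15 to 6.76 for counting error alone, and a log2 change of -2.59. It went from place 5 among the 10 to the last, and from a level above 89.4% of all genes to one above 56.8%. Only 2.03% of all genes had a more negative log2 change. *CycE* maps to chromosome 2L (BDGP6, 15727581 to 15748150, minus strand), with 6 annotated transcripts of 4 to 7 exons. BDGP6 is newer than the dm3 build the authors worked with, and no position was converted. A pair of noncoding RNAs on the other strand covers 150 and 98 of its 5047 exonic bases.

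*CycD* encodes Cyclin D, the partner of Cdk4, and its level was 97.5 FPKM in GNP against 23.3 FPKM in glia, 4.18-fold lower. Its log2 change of -2.02 was the other one past 4-fold, though with upper quartile scaling it was -1.81 and no longer past it. The gene maps to chromosome X (BDGP6, 15906822 to 15909676, minus strand) and overlaps no exon of another gene. *Cdk4*, which encodes the kinase of the pair, was at 46.5 and 25.3 FPKM, 1.84-fold lower, which is within 2-fold. It maps to chromosome 2R (BDGP6, 16579470 to 16585448, plus strand), with 6.74% of its exonic bases under an antisense RNA. The log2 change of the cyclin gene was thus larger than that of its kinase gene. The ratio of *CycD* to *Cdk4* was 2.10 in GNP and 0.92 in glia. The genes of Cyclin E and its kinase showed the same order. *cdc2c*, the gene of Cdk2, was 3.39-fold lower, from 79.2 to 23.4 FPKM, and its ratio to *CycE* went from 1.02 to 1.94.

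*dap* encodes Dacapo, an inhibitor of the Cip/Kip family that binds Cyclin E and Cdk2 and is known for stopping divisions in the embryonic epidermis and nervous system. With 223 FPKM in GNP against 100.1 FPKM in glia it had the highest level of the 10 in both libraries, above 97.1% and 92.6% of all genes. The RNA of this inhibitor gene was itself 2.22-fold lower in glia, a log2 change of -1.14. It was less reduced than the RNA of *CycE*, so that the ratio of *dap* to *CycE* was 2.87 in GNP and 8.32 in glia. This is a 2.90-fold difference between the libraries. Protein levels were not measured, so this and the other ratios given here are of RNA only. Such a ratio within a library does not depend on how the libraries are scaled against each other. The ratio of *dap* to *cdc2c* went from 2.81 to 4.28. *dap* maps to chromosome 2R (BDGP6, 9712321 to 9716256, plus strand), with 1 transcript of 3 exons and no overlapping exon.

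E2F and Rbf genes were nearer to level than the cyclins. *E2f*, the gene of the activating factor E2f1, had 88.1 FPKM in GNP against 62.9 FPKM in glia, 1.40-fold lower, and moved from place 4 to place 3. *E2f2*, the gene of the factor that represses, was at 57.2 and 26.9 FPKM, 2.13-fold lower with a log2 change of -1.06, just past 2-fold. *Rbf* had the lowest GNP level of the 10, 38.7 FPKM, and was at 24.6 FPKM in glia, 1.57-fold lower. In RNA the activator gene was therefore above the repressor gene by 1.54-fold in GNP and by 2.34-fold in glia, and *E2f* stood above *Rbf* by 2.27-fold and 2.56-fold. The dimer partner of both factors, *Dp*, was 2.96-fold lower, from 156 to 52.8 FPKM, and its ratio to *E2f* went from 1.77 to 0.84.

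These genes lie at separate places in the genome. *E2f* spans 21620304 to 21660871 on chromosome 3R of BDGP6, on the minus strand with 6 transcripts, and an antisense RNA covers 4.39% of its exonic bases. *Rbf* maps to chromosome X (BDGP6, 797090 to 801479, minus strand) with 8 exons and no overlapping exon. *E2f2* maps to chromosome 2L (BDGP6, 21154293 to 21156749, minus strand), and 19.9% of its exonic bases are shared with *Mpp6* on the plus strand. *Mpp6* itself had 26.1 FPKM in GNP against 18.8 FPKM in glia, and whether the reads were counted by strand is not given in the sources used here, so the reads of the shared part cannot be assigned to either gene.

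Rbf and its paralog differed. *Rbf2*, the second Rb family gene of the fly, went from 22.6 to 1.84 FPKM, 12.3-fold lower, and the ratio of *Rbf* to *Rbf2* from 1.71 to 13.4. *Rbf2* belongs with *E2f2*, *Rbf* and *Dp* to dREAM, a complex that binds E2F target genes. Of the other 7 dREAM subunits measured, *Rbf2* included, 6 were at least 2-fold lower and 0 higher, with a median log2 change of -1.68. *Caf1*, a histone-binding subunit, was 4.38-fold lower at 275 and 62.9 FPKM, *Myb* 2.71-fold lower, and *lin-52* the least changed at 51.7 and 32.6 FPKM.

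Genes that E2F is known to activate at S phase, as it does *CycE*, were mostly lower too. Of 14 listed, 12 were at least 2-fold lower and 0 higher, with a median log2 change of -2.16. The licensing gene *dup*, the fly Cdt1, went from 206 to 22.4 FPKM and *Mcm7*, a helicase subunit, from 271 to 29.5 FPKM. Only these and *Mcm6*, 3 of the 14, had a more negative change than *CycE*. The PCNA gene *mus209* was 3.00-fold lower, at 282 and 94.2 FPKM. The ribonucleotide reductase genes were the exceptions, *RnrS* at 151 and 96.5 FPKM and *RnrL* at 42.9 and 31.4 FPKM, neither of them 2-fold. *E2f* itself was less changed than 13 of the 14, *RnrL* being the exception.

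**Figure D2:**
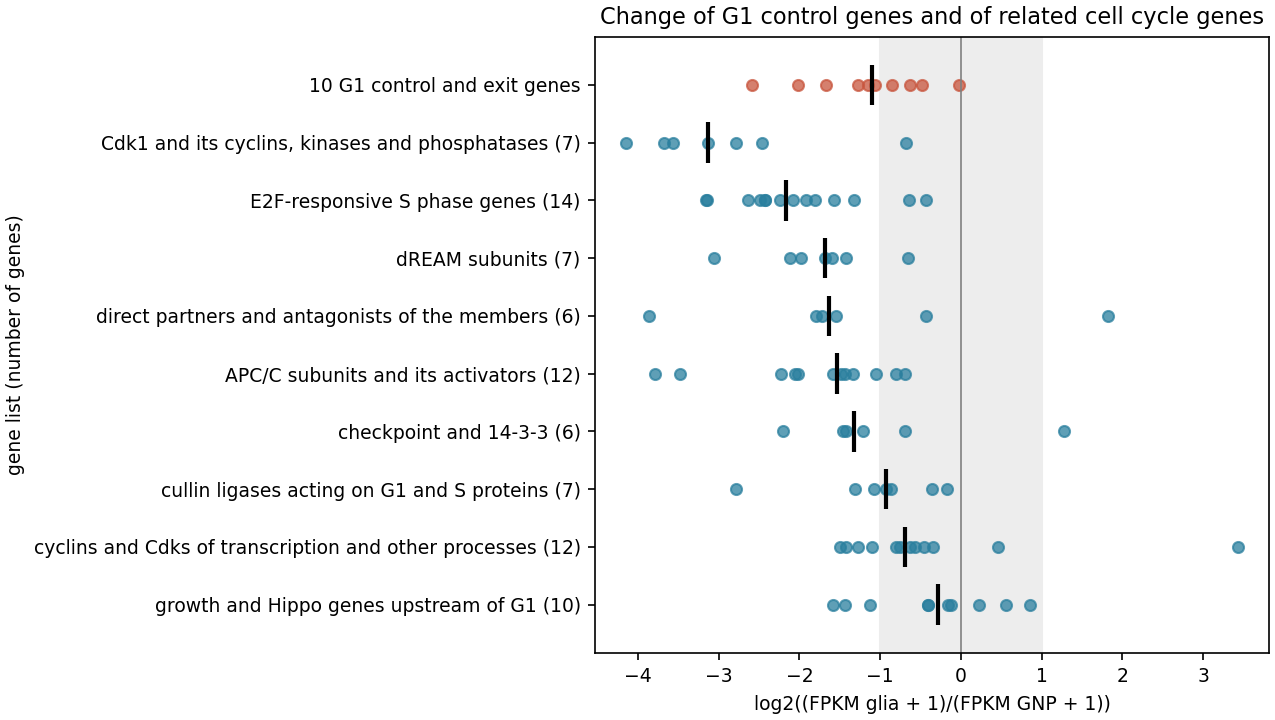
Log2 change of each gene, one point per gene, for the 10 G1 control and exit genes (top row) and 9 lists of related genes, with the median of each as a black bar and changes within 2-fold shaded grey. The median of the 10 was -1.10, that of the Cdk1 list -3.13 and that of the growth and Hippo list -0.29.

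*stg* encodes String, the Cdc25 phosphatase whose transcription sets the time of mitosis in the embryo after the early divisions. Its level was 182 FPKM in GNP against 74.8 FPKM in glia, the second highest level of the 10 in both libraries, and 2.44-fold lower with a log2 change of -1.27. The second Cdc25 gene, *twe*, known for meiosis and the earliest divisions, was 15.0-fold lower, from 78.1 to 5.21 FPKM. The ratio of *stg* to *twe* was 2.33 in GNP and 14.4 in glia. The substrate gene of both, *cdc2*, which encodes Cdk1, went from 256 to 36.1 FPKM, so that *stg* was below it in GNP, at a ratio of 0.71, and above it in glia, at 2.07. *stg* maps to chromosome 3R (BDGP6, 29251826 to 29255800, minus strand), with 2 exons and no overlapping exon.

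Most other genes of Cdk1 control had a more negative change than *stg*. Of the 7 on this list 6 were at least 2-fold lower and 0 higher. Of the mitotic cyclin genes, *CycB* was 18.0-fold, *CycB3* 12.1-fold and *CycA* 8.96-fold lower. Only *CycB* had a more negative change than *twe*. *wee*, the gene of a kinase that opposes String, was 6.04-fold lower, and the ratio of *stg* to *wee* went from 3.52 to 8.73. *Myt1*, the gene of a second such kinase, was at 7.49 and 4.31 FPKM and was the 1 gene of the list less changed than *stg*.

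*trbl* encodes Tribbles, a kinase-like protein that promotes the breakdown of String and holds back mitosis in the mesoderm at gastrulation. Its level was 73.0 FPKM in GNP against 22.2 FPKM in glia, 3.29-fold lower, the third largest decrease of the 10. The ratio of *stg* to *trbl* was 2.50 in GNP and 3.37 in glia. *trbl* maps to chromosome 3L (BDGP6, 20396288 to 20401609, minus strand), with 1 transcript of 2 exons.

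*fzr*, also called Cdh1, was nearly level. GNP had 51.7 FPKM of it and glia 50.8 FPKM, a ratio of 1.02 with a counting interval of 0.98 to 1.05 that spans 1. With a log2 change of -0.02 it lay above 41.8% of all genes in change, and it moved from place 8 among the 10 to place 4. Its sign depends on the scaling of the libraries, being 0.18 with upper quartile scaling and -0.27 with TPM. The gene maps to chromosome X (BDGP6, 4667290 to 4679537, minus strand), with 2 transcripts of 5 exons.

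The partners of *fzr* were not level. *fzy*, the fly Cdc20, activates the same complex during mitosis, with 231 FPKM in GNP against 15.7 FPKM in glia, 14.7-fold lower. The ratio of *fzr* to *fzy* was 0.22 in GNP and 3.23 in glia, a 14.4-fold difference, so that the order of the 2 activator genes in RNA level was reversed. Of the 12 genes on the list of APC/C subunits and other activators 10 were at least 2-fold lower and 0 higher, and each of the 12 had a more negative change than *fzr*. The subunit gene *lmgA* was 12.4-fold lower, at 102 and 8.25 FPKM, while *APC10* at 16.5 and 9.78 FPKM and *Cdc27*, 1.78-fold lower, were within 2-fold. *Rca1*, the gene of an inhibitor of Fzr, was 3.58-fold lower, at 69.0 and 19.3 FPKM, and the ratio of *fzr* to *Rca1* went from 0.75 to 2.64. Against genes whose proteins are targets of the complex, the ratio of *fzr* to *CycA* went from 0.14 to 1.25 and that to *CycB* from 0.048 to 0.86.

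**Figure D3:**
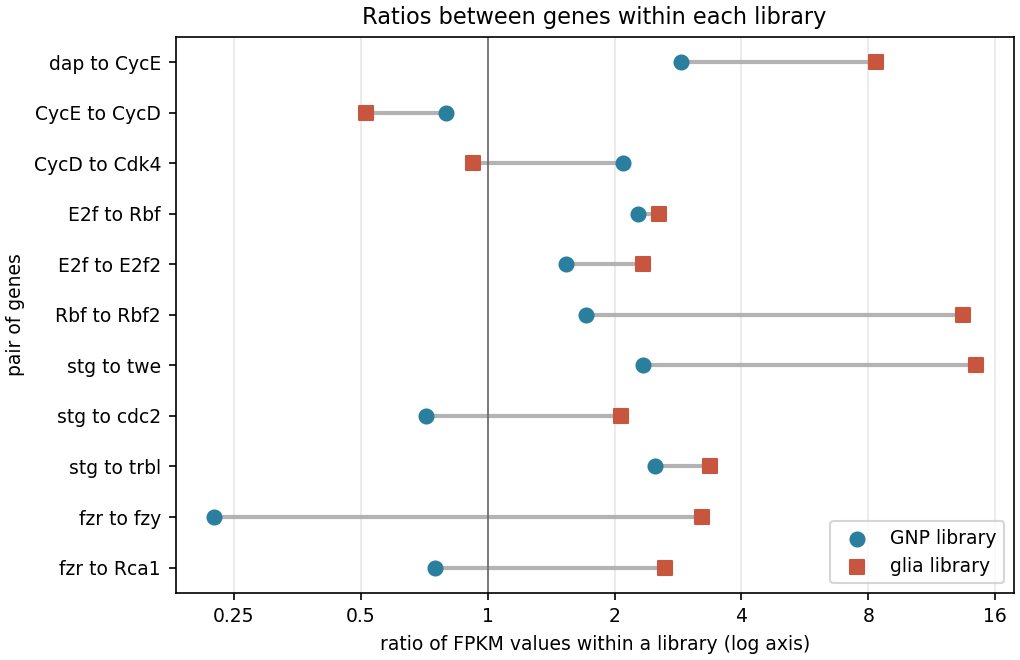
Ratio of the FPKM values of paired genes within the GNP library (circles) and within the glia library (squares), on a log axis with a line at 1, 1 library each. The ratio of fzr to fzy crosses 1, from 0.22 to 3.23, that of CycD to Cdk4 crosses it the other way, from 2.10 to 0.92, and of the pairs drawn that of E2f to Rbf moves least, from 2.27 to 2.56.

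The levels of the 10 covered a 5.75-fold range in GNP and an 8.32-fold range in glia, from *CycE* to *dap*. Without *CycE* the range in glia was 4.51-fold, against the same 5.75-fold in GNP. The genes *dap* and *stg* kept the highest places. In glia *E2f2*, *Cdk4*, *Rbf*, *CycD* and *trbl* lay close together between 22.2 and 26.9 FPKM. The counting intervals of each neighbouring pair among these overlapped, and with 1 library their order cannot be given. Relative to the 81 genes on the 9 related lists, *CycE* was lower in change than all but 13, *CycD* than all but 23 and *trbl* than all but 30. At the other end, 64 of the 81 had a more negative change than *E2f*, 62 than *Rbf* and 74 than *fzr*.

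Among the remaining partners, *rux*, the gene of an inhibitor of Cyclin A and Cdk1, was at 21.8 and 15.9 FPKM and within 2-fold. The Cks genes, whose small proteins bind Cdks, went opposite ways. *Cks30A* was 17.3-fold lower, from 82.4 to 4.75 FPKM, and *Cks85A* 3.77-fold higher, from 11.4 to 42.9 FPKM. On the list of partners and antagonists 4 of 6 were at least 2-fold lower and 1 higher, with a median log2 change of -1.63.

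Genes that act on the stability of G1 proteins were mixed. *ago*, whose F-box protein marks Cyclin E for breakdown, was 7.13-fold lower, from 193 to 27.1 FPKM, close to the change of *CycE*, and the ratio of *ago* to *CycE* was 2.49 and 2.25. The general ubiquitin ligase subunits *skpA*, at 578 and 450 FPKM, and *Roc1a*, at 370 and 328 FPKM, were within 2-fold. Of the 7 genes listed 3 were at least 2-fold lower and 0 higher, with a median log2 change of -0.93. With TPM scaling the count was 5 of 7 and the median -1.18. Checkpoint and 14-3-3 genes had 4 of 6 lower and 1 higher. *tefu*, the fly ATM, was 11.0-fold lower at 6.21 and 0.57 FPKM, a plain ratio that rests on a very low glia value. Its log2 change was -2.20, less negative than the -2.59 of *CycE*. *14-3-3zeta* was higher, at 477 and 1160 FPKM.

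Growth regulators upstream of G1 had a median change nearer to 0 than that of the 10 genes. Of 10 such genes 3 were at least 2-fold lower and 0 higher, with a median log2 change of -0.29. The median was -0.077 with upper quartile scaling, which also gave 1 higher gene, and -0.54 with TPM. *hpo*, a kinase gene of the Hippo pathway, was 3.08-fold lower, *brat*, a growth suppressor of neural stem cell lineages, 2.73-fold, and *dm*, the fly Myc, 2.21-fold at 104 and 47.1 FPKM. *Mnt*, whose protein competes with Myc, was at 31.2 and 57.2 FPKM, the largest increase of the list but within 2-fold. Cyclins and Cdks that serve transcription and other processes had 4 of 12 lower and 1 higher, with a median log2 change of -0.69. *CycC*, a Mediator cyclin, was the lowest in change, 2.95-fold lower, and *Cdk5alpha*, the activator of Cdk5 in postmitotic cells, was 12.9-fold higher, from 4.66 to 60.1 FPKM.

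The scaling of the libraries decided the call of 3 of the 10 genes. With upper quartile scaling *dap* and *E2f2* had log2 changes of -0.93 and -0.85 and were within 2-fold, which left 4 genes lower. With TPM *Cdk4* reached -1.10, which made 7. Over all 13623 genes the number lower went the same way, from 2231 to 1823 with upper quartile scaling and to 2780 with TPM. *E2f* lay between -0.73 and -0.27 and *Rbf* between -0.88 and -0.43. *CycE*, *CycD*, *trbl* and *stg* were at least 2-fold lower under each of the 5 scalings and pseudocounts.

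**Figure D4:**
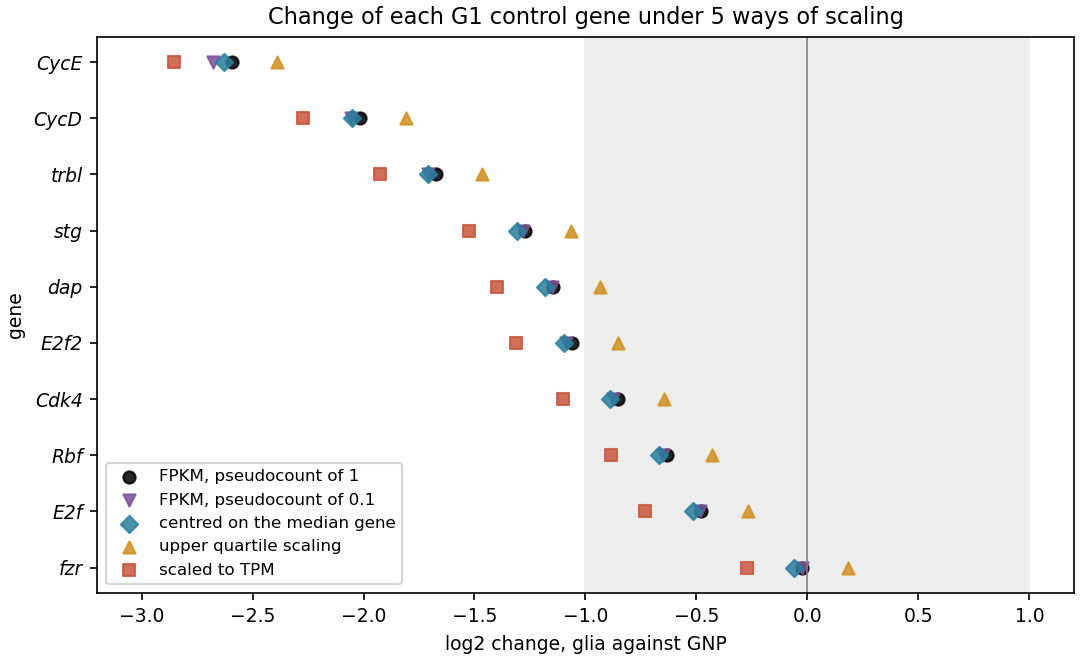
Log2 change of each of the 10 genes computed in 5 ways, with changes within 2-fold shaded grey. Upper quartile scaling (triangles pointing up) moves dap and E2f2 into the shaded band and fzr to 0.18, and TPM (squares) moves Cdk4 out of the band, to -1.10.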

How the data were processed

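Nuclear RNA of 1 GNP and 1 glia library was sequenced by the authors as single-end reads of 49 bp. They mapped reads with TopHat (version 1.3.1) to FlyBase release-5 transcripts, and the deposited FPKM values came from Cuffdiff (version 1.3.0) on uniquely mapped reads; the methods of the paper call them RPKM. The deposited table also holds a p-value and a call for each gene, which were not used. The labels give 3 and 10 h and the paper 5 and 12 h of development after a 2 h collection.

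Change was taken on log2(FPKM + 1), with no filter, and called at 2-fold. With 1 library of each cell type no test was run. Depth was estimated as the number of reads at which low values of 4718 genes with 1 transcript of at least 600 bases came out whole, for an assumed fragment of 200 bases. Of values between 0.5 and 8 reads, 85.2% in GNP and 84.1% in glia lay within 0.1 of a whole read. Intervals are 95% exact intervals on reads for the shortest annotated transcript and cover counting error only. Lengths and positions come from BDGP6, a later build than that of the values. The older symbol *rap* and 5 spellings on the lists were matched through RefSeq synonyms.

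The 10 genes and all lists were chosen with earlier results of these data known. All 10 genes are named; of each list the extremes and genes changed 2-fold in the direction opposite to most of the list are named, and others were picked after their values were seen, as were the paired ratios and the background of genes in the same GNP range. Alternatives were a pseudocount of 0.1, TPM, upper quartile scaling, median centring, a mean of at least 1 FPKM, and limits of 1.5-fold and 4-fold. Promoter motifs and protein identities were not analysed here. Depth and calls were also run on simulated reads drawn with the same fragment and transcript lengths and with counting error only. That check could not show errors in these lengths or variation between libraries. Work was done in Python 3.11.15 (pandas 2.3.3, numpy 2.4.6), with intervals from scipy 1.17.1 and plots from matplotlib 3.10.9.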

Additional observations from a re-analysis of the deposited data

How the results depend on the processing

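The filter at a mean of 1 FPKM removed none of the 10 genes or of the 81 on the 9 related lists, so it could not change their values. It did remove the hemocyte genes *eater* and *Hml*, which lie below 1 FPKM in both libraries. Upper quartile scaling moved single genes by a median of 0.18 and TPM by -0.22 on the log2 scale, and the median change over all genes went from 0.04 to 0.11 and to 0. With upper quartile scaling the median log2 change of the 10 genes was -0.89, and *fzr* changed sign to 0.18. The limit of 4-fold leaves fewer genes by construction. It left 2 of the 10 genes lower, 2 dREAM subunits, 1 of the partners and antagonists, 5 of the APC/C list and 1 of the cullin ligases. Of the checkpoint list it left 1, of the growth and Hippo list 0 and of the transcription cyclins 0. The Cdk1 list kept 6 of 7 lower genes and the list of E2F-responsive S phase genes 8 of 14. Over all genes it gave 614 lower and 1153 higher, against 2231 and 2893 at 2-fold. With the limit of 1.5-fold the cullin ligases had 5 lower genes and the transcription cyclins 7. That limit gave 3287 lower and 4057 higher genes over the whole table. With TPM the cullin ligases had 5 lower genes and a median of -1.18, and the shift of that scaling is larger than the step past 2-fold. No paired analysis was possible because there is 1 library of each cell type, and for the same reason no library could be left out.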

Other observations

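The genes whose pattern over the 2 libraries was most like that of *CycE*, by distance on log2(FPKM + 1), were *CG16892* at 76.3 and 12.1 FPKM, *Drep-2* at 80.7 and 12.5 FPKM and *CG8924* at 79.3 and 12.7 FPKM. Nearest to *fzr* were *CG2811* at 50.8 and 50.9 FPKM, *CG31855* at 51.6 and 49.9 FPKM and *alphaCop* at 51.0 and 49.8 FPKM. The distances were 0.027 to 0.082 for *CycE* and 0.024 to 0.035 for *fzr*. Likeness over 2 libraries is a match of 2 values and no more.

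The widest shift of a ratio among the pairs computed was that of *Cks85A* to *Cks30A*, which was 0.14 in GNP and 9.03 in glia, 65.3-fold apart.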
